A study of Mus musculus with 42 samples.

Results

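The ATPases and core subunits of the BAF chromatin remodelling complex were followed as 10 genes, listed by name: the ATPases Smarca2 and Smarca4, the core subunits Smarcb1, Smarcc1, Smarcc2, Smarcd1, Smarcd3 and Smarce1, and the ARID subunits Arid1a and Arid1b. They were 10 of the 52636 genes in each deposited count file, and all 10 were among the 17173 genes that passed the filter on low counts. In the peak lists, a peak was assigned to a member when the deposited gene identifier was that of the member. Gene coordinates are those of mm10.

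BAF, the mammalian SWI/SNF complex, spends ATP to move or evict nucleosomes and so changes the access of other proteins to DNA. A complex carries either SMARCA2 (BRM) or SMARCA4 (BRG1) as its motor, built on a core of SMARCC, SMARCD, SMARCB1 and SMARCE1 proteins, and in canonical BAF an ARID1 subunit that binds DNA. Its composition is known to change as neural progenitors become neurons, and heterozygous variants of ARID1B, ARID1A, SMARCB1, SMARCA4 or SMARCE1 are a known cause of Coffin-Siris syndrome, a disorder of development and cognition.

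The genotypes were euploid, Ts65Dn and Ts65Dn;Brwd1+/-. Ts65Dn mice carry an additional chromosome with the distal part of chromosome 16 and the proximal part of chromosome 17, and the chromosome 17 part, which contains Arid1b, corresponds to no gene of human chromosome 21. The Ts65Dn;Brwd1+/- animals carry that same chromosome and 1 disrupted copy of Brwd1, a chromosome 16 gene, so they were trisomic for Arid1b as well. Transcripts had been counted in primary neuronal cultures of E16 forebrain, described as pooled male and female, in 3 libraries per genotype. SMARCA2/4 ChIP-seq, with an antibody against both ATPases, came from the hippocampus of male mice aged 6 to 8 weeks, in 4 immunoprecipitated and 4 input libraries per genotype, each holding tissue of 2 animals. ATAC-seq, which maps open chromatin, came from sorted NeuN+ hippocampal nuclei of adult male mice in 3 libraries per genotype. For ChIP-seq and ATAC-seq 1 peak list per genotype was used, so no replicate error exists for any peak. Expression and peaks therefore describe different ages and tissues.

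The culture libraries held between 17270070 and 25892802 counts in genes. Brwd1, the gene the design targets, lay at 85.9 to 93.2 CPM (counts per 1000000 gene counts, with libraries scaled by TMM) in euploid, 125 to 129 CPM in Ts65Dn and 124 to 146 CPM in the libraries labelled Ts65Dn;Brwd1+/- (log2 fold change 0.13 ± 0.08 SE against Ts65Dn, adjusted p = 0.186 in the edgeR quasi-likelihood test), so the disrupted copy was not seen as a lower level. In the latter 3 libraries Xist, the RNA of the inactive X chromosome, lay at 1409 to 1982 CPM and 4 Y-linked genes summed to 0.0557 to 0.149 CPM, against at most 1.12 CPM and at least 194 CPM in the other 6. Sex and the comparisons with these libraries cannot be told apart, and they are called the libraries labelled Ts65Dn;Brwd1+/- for both reasons. The markers of cell types also moved: 10 pan-neuronal genes summed to 4594 to 5621 CPM in euploid, 1147 to 3032 CPM in Ts65Dn and 4590 to 5953 CPM in the libraries labelled Ts65Dn;Brwd1+/-, while 8 radial glia genes summed to 4599 to 5264, 7009 to 8746 and 3882 to 4442 CPM and 10 cell cycle genes to 235 to 251, 327 to 373 and 566 to 587 CPM. In the same order, 8 GABAergic genes summed to 473 to 519, 111 to 192 and 851 to 945 CPM, 8 glutamatergic genes to 1034 to 1348, 312 to 728 and 943 to 1313 CPM, and 8 oligodendrocyte lineage genes to 286 to 339, 509 to 619 and 884 to 1093 CPM. The Ts65Dn medians of the pan-neuronal and glutamatergic sums were 2633 and 633 CPM, so the lowest Ts65Dn library stood apart in each. The sums of 8 astrocyte genes were 2147 to 2632, 3032 to 3532 and 2368 to 2700.1 CPM, those of 6 fibroblast genes 100.1 to 126, 191 to 273 and 89.97 to 98.1 CPM, and those of 8 microglia genes 7.51 to 13.98, 4.00 to 5.88 and 1.12 to 1.78 CPM. Singly, the fibroblast genes went both ways in Ts65Dn against euploid, with 3 higher and 3 lower and a median log2 fold change of -0.39. The 6 endothelial genes summed to 81.1 to 90.3 CPM in euploid, 654 to 860.2 CPM in Ts65Dn and 86.8 to 129 CPM in the libraries labelled Ts65Dn;Brwd1+/-, with the defining marker Cldn5 at 0 in all 9. Only 3 of the 6 passed the filter on low counts. Of these 1 was higher in Ts65Dn than in euploid and 2 did not pass the test, with a median log2 fold change of -0.32, so the sum does not describe the list. Neuronal sums were thus lowest in Ts65Dn, and GABAergic, oligodendrocyte and cell cycle sums highest in the libraries labelled Ts65Dn;Brwd1+/-. In bulk libraries fewer cells of a type and less RNA per cell cannot be told apart, and the part of these shifts in the values of the BAF genes was not tested.

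For 6 members there was a deposited peak over the first annotated base of the gene in some genotypes and not in others, and the 250 bases before that base are shown because these are the members at which the peak lists differed at that base. Peaks near but not over the first base also differed at other members, such as Smarca4 and Smarcd3. Sequences are from the RefSeq copy of GRCm38.p6 (mm10), 5′ to 3′ on the strand of the gene. Capitals mark bases inside a peak: of the euploid SMARCA2/4 list for Smarca2 (chr19:26604800-26605049, plus strand), Smarcd1 (chr15:99701879-99702128, plus strand) and Arid1a (chr4:133756770-133757019, minus strand), of the Ts65Dn ATAC-seq list for Smarcc2 (chr10:128458998-128459247, plus strand) and Arid1b (chr17:4994082-4994331, plus strand), and of the Ts65Dn;Brwd1+/- ATAC-seq list for Smarce1 (chr11:99231018-99231267, minus strand).
Smarca2: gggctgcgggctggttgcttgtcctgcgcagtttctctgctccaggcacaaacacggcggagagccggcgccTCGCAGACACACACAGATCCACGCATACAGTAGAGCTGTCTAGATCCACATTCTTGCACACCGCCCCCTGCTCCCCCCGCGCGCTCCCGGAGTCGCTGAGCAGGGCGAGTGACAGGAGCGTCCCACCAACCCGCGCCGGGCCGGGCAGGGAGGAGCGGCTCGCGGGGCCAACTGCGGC
Smarcd1: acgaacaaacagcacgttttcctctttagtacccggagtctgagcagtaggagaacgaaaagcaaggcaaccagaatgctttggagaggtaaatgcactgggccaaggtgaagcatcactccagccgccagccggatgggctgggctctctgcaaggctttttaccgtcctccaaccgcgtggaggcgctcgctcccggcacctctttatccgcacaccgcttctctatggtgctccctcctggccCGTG
Arid1a: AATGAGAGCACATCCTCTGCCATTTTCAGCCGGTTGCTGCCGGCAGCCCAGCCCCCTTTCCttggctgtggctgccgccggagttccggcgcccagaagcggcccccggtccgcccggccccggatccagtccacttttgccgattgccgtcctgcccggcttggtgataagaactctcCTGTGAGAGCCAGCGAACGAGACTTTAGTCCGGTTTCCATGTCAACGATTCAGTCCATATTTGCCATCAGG
Smarcc2: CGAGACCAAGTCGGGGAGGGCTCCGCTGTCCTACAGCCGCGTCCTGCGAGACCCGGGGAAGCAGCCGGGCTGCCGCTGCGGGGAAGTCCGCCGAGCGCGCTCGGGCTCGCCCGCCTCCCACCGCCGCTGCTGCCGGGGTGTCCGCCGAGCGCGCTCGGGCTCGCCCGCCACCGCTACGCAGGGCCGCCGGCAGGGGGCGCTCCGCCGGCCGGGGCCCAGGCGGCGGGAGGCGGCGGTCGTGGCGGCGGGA
Arid1b: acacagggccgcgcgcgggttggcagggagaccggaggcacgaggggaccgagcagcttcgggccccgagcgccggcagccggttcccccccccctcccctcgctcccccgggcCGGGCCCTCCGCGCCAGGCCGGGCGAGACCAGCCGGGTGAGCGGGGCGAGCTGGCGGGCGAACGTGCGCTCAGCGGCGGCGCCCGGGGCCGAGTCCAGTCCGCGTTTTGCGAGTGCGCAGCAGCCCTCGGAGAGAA
Smarce1: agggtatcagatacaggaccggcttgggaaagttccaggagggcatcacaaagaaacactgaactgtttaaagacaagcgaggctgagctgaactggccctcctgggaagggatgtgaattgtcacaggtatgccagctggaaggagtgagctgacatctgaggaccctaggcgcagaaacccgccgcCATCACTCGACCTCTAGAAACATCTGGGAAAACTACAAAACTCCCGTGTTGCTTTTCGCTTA
The windows of Smarcc2 and Arid1b were the richest in G and C of these 6, with 81.2 and 78.4% G or C and 42 and 36 CG dinucleotides. Those of Smarca2, Arid1a, Smarcd1 and Smarce1 held 68.8, 61.2, 57.6 and 51.6% and 24, 18, 15 and 8 CG dinucleotides. Over 32851 RefSeq promoter windows of the same length the medians were 52.4% and 6. On both strands, 1 GC box (GGGCGG) was found in the windows of Smarca2 and of Arid1a and none in the other 4, where 32.7% of all promoter windows hold one, and 1 ETS core (CCGGAA) was found in that of Arid1a, where 12% of all windows do. No CCAAT box (CCAAT, in 33.8% of windows), cAMP response element (TGACGTCA, in 1.55%) or AP-1 element (TGANTCA, in 6.75%) was in any of the 6.

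In the cultures, the members did not shift together between Ts65Dn and euploid. Arid1b and Smarcb1 were higher in Ts65Dn, Smarcc2 and Smarcd1 were lower, and 6 did not pass the test. Of all tested genes 25.6% were called higher and 21.1% lower in this comparison. The median log2 fold change of the members was -0.12, against 0.04 over all tested genes. Between libraries of the same number, Smarcb1, Smarce1 and Arid1b were higher in Ts65Dn in 3 of 3 pairs and the other 7 members lower in 3 of 3, and the replicate number as a block changed no call of a member. For every member but Smarca2, Smarcd3 and Arid1a the ranges of euploid and Ts65Dn did not overlap, so any pairing would have given 3 of 3. In the libraries labelled Ts65Dn;Brwd1+/-, 8 of 10 members were higher than in Ts65Dn and none was lower, where 27.6% of all tested genes were higher and 30.5% lower, with a median of 0.48 against 0.00. Against euploid the same libraries also had 8 of 10 members higher and none lower, where 14% of all tested genes were higher and 15.2% lower, with a median of 0.42 against -0.02. The comparisons share libraries and are not independent of each other.

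**Figure D1:**
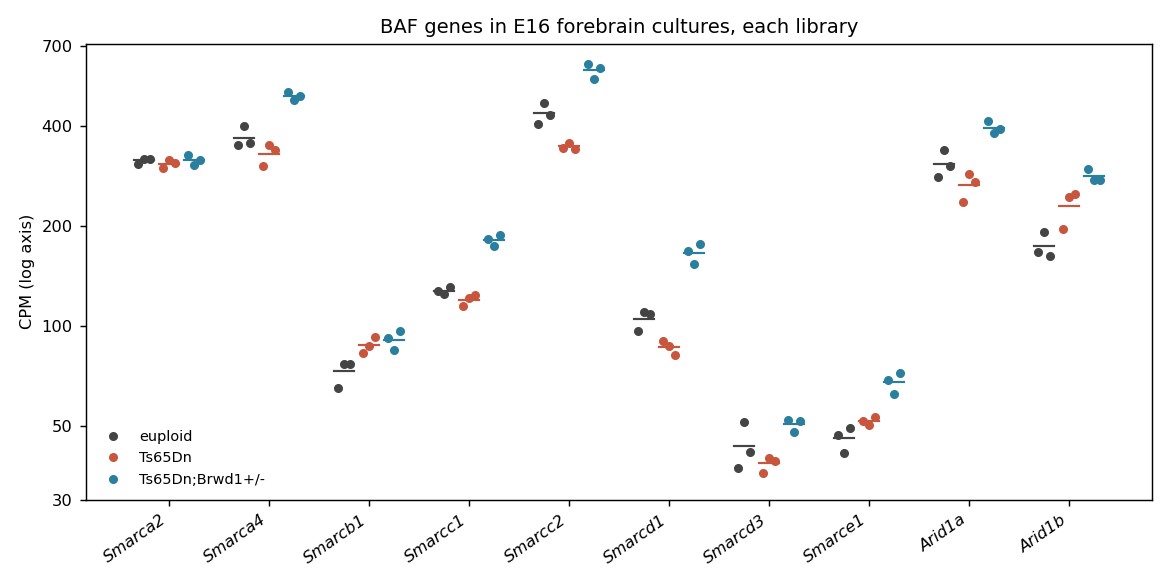
CPM of the 10 BAF genes on a log axis in each of the 9 culture libraries, coloured by genotype, with a bar at the mean of 3 libraries. Smarca2 lies between 299 and 328 CPM in all 9, while Smarca4, Smarcc1, Smarcc2, Smarcd1, Smarce1, Arid1a and Arid1b have their 3 highest values in the libraries labelled Ts65Dn;Brwd1+/-.

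Of the ATPases, Smarca2 (ENSMUSG00000024921, chr19:26605050-26778322) varied least among the members over the 9 libraries. Its level was 308, 319.7 and 319 CPM in euploid, 299, 316 and 310.1 CPM in Ts65Dn and 328, 305 and 315 CPM in the libraries labelled Ts65Dn;Brwd1+/-. The ranges of the genotypes overlapped in part. Its log2 fold change was -0.03 ± 0.07 (SE, 3 libraries per genotype) for Ts65Dn against euploid, with a 95% interval from -0.19 to 0.12 (adjusted p = 0.722, edgeR quasi-likelihood test with the Benjamini-Hochberg method), and 0.00 with an interval from -0.15 to 0.16 for the libraries labelled Ts65Dn;Brwd1+/- against euploid (adjusted p = 0.982).

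Smarca4 (ENSMUSG00000032187, chr9:21616169-21704230), the ATPase known to be needed in neural progenitors, lay at 352, 399.9 and 357 CPM in euploid, 304, 350.1 and 338 CPM in Ts65Dn and 506, 481 and 492 CPM in the libraries labelled Ts65Dn;Brwd1+/-. The 3 last values stood above all others. Without euploid replicate 2 or without Ts65Dn replicate 1, its log2 fold change between Ts65Dn and euploid was -0.10. With all libraries Smarca4 did not pass that test, at -0.16 ± 0.09 on the log2 scale (edgeR quasi-likelihood adjusted p = 0.153). It was 1.49-fold higher in the libraries labelled Ts65Dn;Brwd1+/- than in Ts65Dn (log2 fold change 0.58 ± 0.09, adjusted p = 0.000283) and 1.34-fold higher than in euploid (0.42 ± 0.09, adjusted p = 0.00501), and both calls held in all 17 alternative analyses.

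Among the core subunits, Smarcc1 and Smarcc2 encode the paired scaffold proteins BAF155 and BAF170. Smarcc2 (ENSMUSG00000025369, chr10:128459248-128490482) lay at 406, 471 and 434 CPM in euploid, 344, 357 and 343 CPM in Ts65Dn and 614, 554 and 599 CPM in the libraries labelled Ts65Dn;Brwd1+/-. No value of one genotype fell within the range of another. It was 0.795 times the euploid level in Ts65Dn (log2 fold change -0.33 ± 0.08, edgeR quasi-likelihood adjusted p = 0.00882), and it was 1.69-fold higher in the libraries labelled Ts65Dn;Brwd1+/- than in Ts65Dn (0.76 ± 0.08, adjusted p = 3.75e-05). Of the 4 calls between Ts65Dn and euploid, that of Smarcc2 was the only one kept in all 17 alternatives.

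Smarcc1 (ENSMUSG00000032481, chr9:110117708-110240178) lay at 127, 125 and 131 CPM in euploid, 115, 122 and 124 CPM in Ts65Dn and 183, 174 and 188 CPM in the libraries labelled Ts65Dn;Brwd1+/-. Its values in Ts65Dn were below every euploid value, but the difference did not pass the test (log2 fold change -0.09 ± 0.07, edgeR quasi-likelihood adjusted p = 0.308). It was 1.51-fold higher in the libraries labelled Ts65Dn;Brwd1+/- than in Ts65Dn (0.60 ± 0.07, adjusted p = 4.41e-05). Smarcc1 shares 123 exonic bases with Dhx30 on the other strand, and neither the use of strand in counting nor the treatment of reads over shared exons is stated. Dhx30 itself lay at 137 to 151, 115 to 119 and 160.3 to 165 CPM in the same order of genotypes.

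Smarcd1 and Smarcd3 encode the alternative BAF60A and BAF60C subunits, which link BAF to transcription factors. Smarcd1 (ENSMUSG00000023018, chr15:99702129-99713991) lay at 96.7, 109.9 and 109 CPM in euploid, 90.2, 87.3 and 81.5 CPM in Ts65Dn and 168, 154 and 176 CPM in the libraries labelled Ts65Dn;Brwd1+/-. The 3 genotypes did not overlap. Its log2 fold change of -0.28 ± 0.08 in Ts65Dn against euploid passed the edgeR quasi-likelihood test (adjusted p = 0.0173) but not without euploid replicate 2 (-0.25, adjusted p = 0.0562) or without Ts65Dn replicate 3 (-0.24, adjusted p = 0.0516). Its 1.92-fold higher level in the libraries labelled Ts65Dn;Brwd1+/- than in Ts65Dn (0.94 ± 0.08, adjusted p = 9.63e-06) was the largest change of any member in any of the 3 comparisons. Smarcd1 shares 287 exonic bases with Gm17349 and 224 with Gm34939, both on the other strand, so its counts carry the same doubt over overlapping genes as those of Smarcc1. Gm17349 lay at 0 to 0.175 CPM in euploid, 0 to 0.132 CPM in Ts65Dn and 0.0747 to 0.312 CPM in the libraries labelled Ts65Dn;Brwd1+/-.

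Smarcd3 (ENSMUSG00000028949, chr5:24590818-24624411) lay at 37.2, 51.5 and 41.7 CPM in euploid, 36.2, 40.1 and 39.3 CPM in Ts65Dn and 52, 48.1 and 51.6 CPM in the libraries labelled Ts65Dn;Brwd1+/-. Euploid replicate 2 reached the level of the last group. The log2 fold change was -0.17 ± 0.11 in Ts65Dn against euploid (edgeR quasi-likelihood adjusted p = 0.223; -0.035 without euploid replicate 2, adjusted p = 0.771), 0.39 ± 0.11 from Ts65Dn to the libraries labelled Ts65Dn;Brwd1+/- (adjusted p = 0.0113) and 0.22 ± 0.11 against euploid (adjusted p = 0.168), where it passed only without euploid replicate 2 (0.36, adjusted p = 0.0153). Smarcd3 shares 2466 exonic bases with Chpf2 on the other strand, so its counts are uncertain. Chpf2 lay at 42.3 to 50.4 CPM in euploid, 48.2 to 50.2 CPM in Ts65Dn and 39.5 to 42.7 CPM in the libraries labelled Ts65Dn;Brwd1+/-.

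Smarcb1 (ENSMUSG00000000902, chr10:75896769-75921617), which encodes the subunit BAF47 that holds the complex to the nucleosome, lay at 65.3, 77 and 76.6 CPM in euploid, 83.1, 87 and 92.6 CPM in Ts65Dn and 91.9, 84.5 and 96.4 CPM in the libraries labelled Ts65Dn;Brwd1+/-. Both trisomic groups stood above euploid and overlapped each other. The log2 fold change was 0.26 ± 0.09 for Ts65Dn against euploid (edgeR quasi-likelihood adjusted p = 0.0302) and 0.32 ± 0.09 for the libraries labelled Ts65Dn;Brwd1+/- against euploid (adjusted p = 0.0199). The first call was lost in 9 of 17 alternatives, with log2 fold changes between 0.19 and 0.30 over all of them, and went with the omission of any library but euploid replicate 2 and Ts65Dn replicate 1 (adjusted p between 0.0528 and 0.0975). The second was lost without euploid replicate 1 (0.24, adjusted p = 0.0620) or 3 (0.31, adjusted p = 0.0578) and without Ts65Dn;Brwd1+/- replicate 1 (0.29, adjusted p = 0.0720) or 3 (0.24, adjusted p = 0.108).

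Smarce1 (ENSMUSG00000037935, chr11:99209047-99231017), which encodes the HMG-domain subunit BAF57, lay at 47.1, 41.5 and 49.4 CPM in euploid, 51.6, 50.2 and 53.3 CPM in Ts65Dn and 68.7, 62.5 and 72.4 CPM in the libraries labelled Ts65Dn;Brwd1+/-. The last 3 were the highest. The difference between Ts65Dn and euploid did not pass the edgeR quasi-likelihood test (log2 fold change 0.17 ± 0.08, adjusted p = 0.127), and it was 0.099 without euploid replicate 2. The libraries labelled Ts65Dn;Brwd1+/- were 1.31-fold above Ts65Dn (0.39 ± 0.08, adjusted p = 0.00270) and 1.48-fold above euploid (0.56 ± 0.08, adjusted p = 0.000897). A processed pseudogene, Smarce1-ps1, is a near copy and could take some of the reads. It lay at 1.46 to 1.59, 1.84 to 2.32 and 2.32 to 3.14 CPM.

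**Figure D2:**
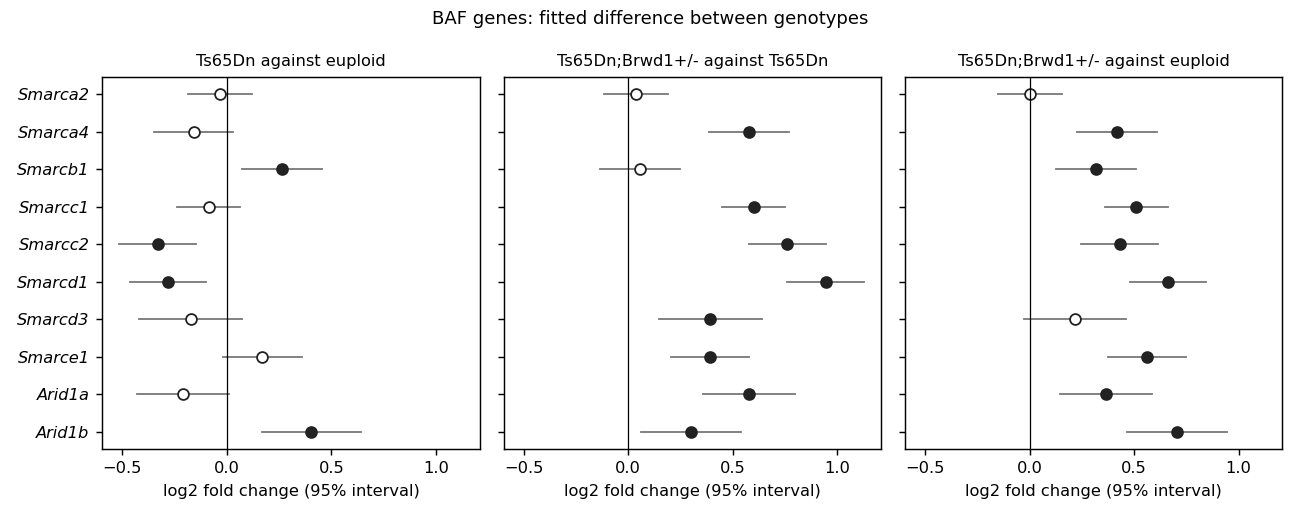
Fitted log2 fold change of each BAF gene in the 3 comparisons, with its 95% interval as a line. Filled points passed the edgeR quasi-likelihood test at an adjusted p under 0.05 and open points did not. The middle panel has 8 filled points, all above 0, from 0.30 for Arid1b to 0.94 for Smarcd1.

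Of the ARID subunits, Arid1a (BAF250A, ENSMUSG00000007880, chr4:133679008-133756769), which lies on chromosome 4 and has the normal number of copies, lay at 281, 338 and 304 CPM in euploid, 237, 288 and 272 CPM in Ts65Dn and 414, 382 and 391 CPM in the libraries labelled Ts65Dn;Brwd1+/-. Euploid and Ts65Dn overlapped, although Ts65Dn was lower in each of the 3 same-numbered pairs. The log2 fold change was -0.21 ± 0.10 in Ts65Dn against euploid (edgeR quasi-likelihood adjusted p = 0.104, and 0.0834 with the replicate block), and -0.14 without euploid replicate 2 or without Ts65Dn replicate 1. From Ts65Dn to the libraries labelled Ts65Dn;Brwd1+/- it was 0.58 ± 0.10 (adjusted p = 0.000710). Against euploid it was 0.36 ± 0.10 (adjusted p = 0.0198), a call that was lost without euploid replicate 1 (0.30, adjusted p = 0.0704) or 3 (0.31, adjusted p = 0.0960) and without Ts65Dn;Brwd1+/- replicate 1 (0.31, adjusted p = 0.0888), 2 (0.36, adjusted p = 0.0517) or 3 (0.34, adjusted p = 0.0747).

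Arid1b (BAF250B, ENSMUSG00000069729, chr17:4994332-5347656), the member with 3 copies in both trisomic genotypes, lay at 167, 192 and 163 CPM in euploid, 195, 244 and 249.98 CPM in Ts65Dn and 297, 276 and 276 CPM in the libraries labelled Ts65Dn;Brwd1+/-. The genotypes did not overlap, although Ts65Dn replicate 1 lay next to euploid replicate 2. It was 1.32-fold higher in Ts65Dn than in euploid (log2 fold change 0.40 ± 0.11, edgeR quasi-likelihood adjusted p = 0.0115), with a 95% interval from 0.17 to 0.64 that includes 0.58, the log2 of a change from 2 to 3 copies. That call was lost without euploid replicate 3 (0.31, adjusted p = 0.0736). In the libraries labelled Ts65Dn;Brwd1+/- it was 1.63-fold higher than in euploid (0.70 ± 0.11, adjusted p = 0.000962), which held in all 17 alternatives. The step from Ts65Dn to these libraries was 0.30 ± 0.11 (adjusted p = 0.0340) and did not pass without Ts65Dn replicate 1 (0.19, adjusted p = 0.110) or without Ts65Dn;Brwd1+/- replicate 1 (0.27, adjusted p = 0.0994), 2 (0.33, adjusted p = 0.0582) or 3 (0.32, adjusted p = 0.0666).

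Arid1b was compared with the genes that share its segment. Over all tested genes 25.6% were higher and 21.1% lower in Ts65Dn than in euploid, and 14% and 15.2% in the libraries labelled Ts65Dn;Brwd1+/- than in euploid. Of 134 tested genes in the triplicated segment, 92 were higher and 7 lower in Ts65Dn, with a median log2 fold change of 0.63, and of 43 in the chromosome 17 part 27 were higher and 3 lower, with a median of 0.64. The value of Arid1b, 0.40, lay below both medians, although its interval up to 0.64 reached them. In the libraries labelled Ts65Dn;Brwd1+/- against euploid the order was the other way: Arid1b stood at 0.70, against a median of 0.55 over the segment, where 82 genes were higher and 5 lower, and of 0.54 over its chromosome 17 part, where 24 were higher and 0 lower. Both medians lay inside its 95% interval from 0.46 to 0.94, so neither order was resolved. Of the 10 tested genes within 1000000 bases of Arid1b, none of which lay on its centromeric side, 4 were higher and 2 lower in Ts65Dn. The nearest outside the gene were Tmem242, 63214 bases away, at 0.86 ± 0.06 (adjusted p = 9.26e-06 in the edgeR quasi-likelihood test), Zdhhc14, a palmitoyltransferase, at -0.28 ± 0.18 (adjusted p = 0.237) and Snx9, a sorting nexin of endocytosis, at 1.42 ± 0.12 (adjusted p = 2.72e-05). From Ts65Dn to the libraries labelled Ts65Dn;Brwd1+/- these 3 genes stood at -0.09 ± 0.06, 1.08 ± 0.18 and -0.99 ± 0.12. Gm15599, a pseudogene inside Arid1b on the other strand, had a log2 fold change of -0.84 ± 0.27 in Ts65Dn (adjusted p = 0.0283).

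Ratios of paralogues within a library do not depend on how libraries are scaled, so 4 pairs were compared over the 3 pairs of genotypes with two-sided exact permutation tests, for which 3 libraries against 3 allow no p below 0.1. The ratio of Arid1a to Arid1b counts was 1.68, 1.76 and 1.87 in euploid, 1.21, 1.18 and 1.09 in Ts65Dn and 1.39, 1.39 and 1.42 in the libraries labelled Ts65Dn;Brwd1+/-. The 3 genotypes did not overlap, with a log2 difference of -0.61 between Ts65Dn and euploid (exact permutation p = 0.1, 0.12 after Benjamini-Hochberg adjustment over 12 tests) and 0.27 from Ts65Dn to the libraries labelled Ts65Dn;Brwd1+/- (p = 0.1, adjusted 0.12). Between same-numbered euploid and Ts65Dn libraries the ratio was lower in Ts65Dn in 3 of 3 pairs, for which an exact paired permutation test allows no p below 0.25 (p = 0.25). As euploid and Ts65Dn did not overlap, any pairing would have given this result, so the pairing adds no support. The ratio of Arid1a to Arid1b counts was thus nearer to 1 in Ts65Dn than in the other 2 groups. It is a ratio of RNA counts not corrected for exon length, and it does not describe the proteins.

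The ratio of Smarca4 to Smarca2 was 1.14, 1.25 and 1.12 in euploid, 1.02, 1.11 and 1.09 in Ts65Dn and 1.54, 1.58 and 1.56 in the libraries labelled Ts65Dn;Brwd1+/-. Ts65Dn lay below euploid by 0.13 on the log2 scale and the last group lay above euploid by 0.42, both without overlap (exact permutation p = 0.1 each, adjusted 0.12). Without euploid replicate 2 the first difference was -0.077. Smarcd1 to Smarcd3 was 2.59, 2.13 and 2.60 in euploid, 2.49, 2.17 and 2.07 in Ts65Dn and 3.24, 3.19 and 3.41 in the libraries labelled Ts65Dn;Brwd1+/-. Euploid and Ts65Dn overlapped (exact permutation p = 0.3, adjusted 0.327). Smarcc1 to Smarcc2 was 0.313, 0.265 and 0.302 in euploid, 0.334, 0.341 and 0.362 in Ts65Dn and 0.298, 0.315 and 0.315 in the libraries labelled Ts65Dn;Brwd1+/-, the one ratio for which the last group overlapped euploid (exact permutation p = 0.5, adjusted 0.5).

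**Figure D3:**
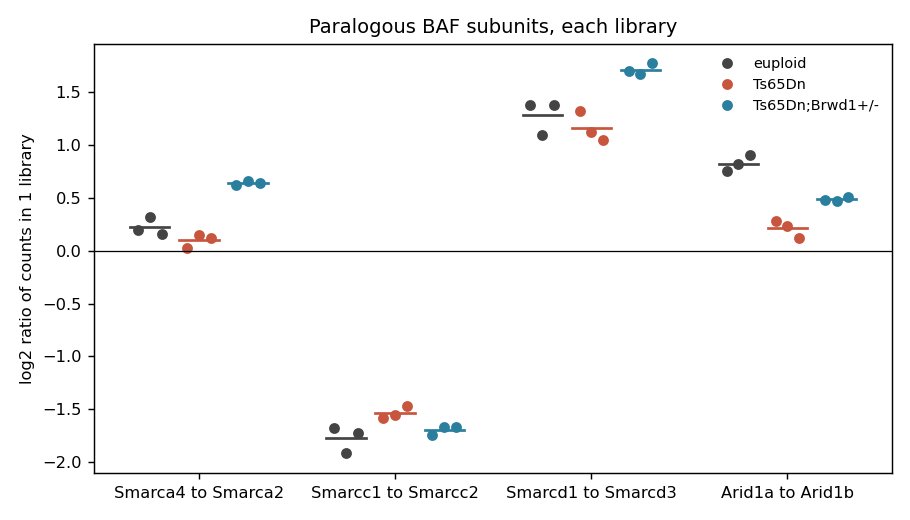
log2 ratio of the counts of paralogous BAF genes in each of the 9 culture libraries, with a bar at the mean of 3 libraries. A value of 0 means equal counts. The Arid1a to Arid1b ratio has means of 0.82 in euploid, 0.21 in Ts65Dn and 0.48 in the libraries labelled Ts65Dn;Brwd1+/-.

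Per length of exon, as RPKM (CPM divided by the exon length in kilobases), the order of the members was headed by Smarcc2 and Smarca4 in every genotype. In euploid the mean levels were 78.7 ± 5.84 RPKM (SD, n = 3) for Smarcc2, 57 ± 4.10 for Smarca4, 26.8 ± 2.53 for Arid1a, 26.1 ± 1.80 for Smarcd1, 22.1 ± 0.478 for Smarca2, 16.3 ± 0.417 for Smarcc1, 13.8 ± 1.25 for Arid1b, 9.20 ± 0.840 for Smarcb1, 8.49 ± 1.42 for Smarcd3 and 6.92 ± 0.611 for Smarce1. Arid1a and Smarcd1 overlapped, as did the last 3 in sequence. Arid1b lay below Smarcc1 in euploid and above it in Ts65Dn, at 18.2 ± 2.38 against 15.3 ± 0.621 RPKM, where the ranges of the 2 genes overlapped. In the libraries labelled Ts65Dn;Brwd1+/- Smarcc1, Arid1b and Smarca2 lay at 23.2 ± 0.920, 22.5 ± 0.946 and 22.2 ± 0.806 RPKM and overlapped, while Smarcd1 at 41.3 ± 2.85 RPKM stood above Arid1a at 34.5 ± 1.41 RPKM.

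Over the 9 libraries, which share genotype, the log2 CPM of Smarca4 and Arid1a correlated with r = 0.99 and that of Smarcc2 and Smarcd1 with r = 0.98, whereas Smarca2 and Smarce1 had the lowest r of the member pairs, 0.15. These correlations describe 9 points in 3 groups. The tested genes with a pattern most like that of Smarca4 were Pou6f1, Gse1 and Fbrsl1 (r = 0.99 each), and for Arid1b they were Arhgap11a, Gm4739 and Kifc1 (r = 0.98, 0.98 and 0.98). For Smarca2 they were Gm26803, Mon1a and Gm45606 (r = 0.91, 0.91 and 0.89). Other tested genes correlated above 0.9 with Smarca4 in 539 cases, with Arid1b in 240 and with Smarca2 in 2.

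The other BAF subunits were taken as a fixed list. Of 21 tested, 7 were higher and 9 lower in Ts65Dn than in euploid, where 25.6% and 21.1% of all tested genes were. Their median log2 fold change was -0.12. In the libraries labelled Ts65Dn;Brwd1+/- 11 were higher and 2 lower than in Ts65Dn, with a median of 0.29, where 27.6% and 30.5% of all tested genes were. Against euploid the same libraries had 11 higher and 0 lower, at a median of 0.29, where 14% and 15.2% of all tested genes were. Only 6 were called without euploid replicate 1 or 3 or without Ts65Dn;Brwd1+/- replicate 1 or 3. The 3 with the lowest p in both of the first comparisons were Ss18l1, Bcl11b and Bcl7a. Ss18l1 encodes CREST, the neuronal SS18 homologue, and had a mean of 47.2 CPM in euploid, 29.8 CPM in Ts65Dn and 63.9 CPM in the libraries labelled Ts65Dn;Brwd1+/- (log2 fold changes -0.66 ± 0.08 and 1.10 ± 0.08, edgeR quasi-likelihood adjusted p = 0.000218 and 3.89e-06). Bcl11b, a zinc finger factor of deep-layer and striatal neurons, had means of 29.7, 12.4 and 110.01 CPM (-1.26 ± 0.16 and 3.15 ± 0.16). Bcl7a had means of 76.1, 34.5 and 115 CPM (-1.14 ± 0.16 and 1.74 ± 0.16). In the Ts65Dn libraries the pan-neuronal markers fell against euploid (9 of 10 lower) and the cell cycle markers rose (10 of 10 higher), and their part in these values was not tested.

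ATPases of other remodelling families were taken as the nearest comparison for a general change of remodellers. Of 17 tested, 3 were higher and 4 lower in Ts65Dn than in euploid (median log2 fold change -0.05), 8 higher and 1 lower in the libraries labelled Ts65Dn;Brwd1+/- than in Ts65Dn (median 0.16), and 3 higher and 1 lower than in euploid (median 0.06). Of all tested genes 25.6% were higher and 21.1% lower in the first comparison, 27.6% and 30.5% in the second and 14% and 15.2% in the third. Chd3, a NuRD ATPase, had means of 477, 210 and 627 CPM in the 3 genotypes (-1.19 ± 0.21 and 1.58 ± 0.21 in the first 2 comparisons, edgeR quasi-likelihood adjusted p = 0.00158 and 0.000146). Hells, known from dividing cells, had means of 7.44, 11.1 and 15.5 CPM (0.58 ± 0.10 and 0.48 ± 0.09). Chd9 was 0.43 ± 0.08 higher in Ts65Dn than in euploid on the log2 scale, and Chd7 was 1.14 ± 0.09 higher in the libraries labelled Ts65Dn;Brwd1+/- than in Ts65Dn. Whether the 10 members differ from these lists was not tested.

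In adult hippocampus, most SMARCA2/4 peaks at the genes of the complex itself were in the euploid list. That list held 22667 peaks, of which 58 named 7 of the 10 members, while the Ts65Dn list held 1290 peaks with 4 at members and the Ts65Dn;Brwd1+/- list 1873 with 3. Per 10000 peaks of each list these are 25.6, 31 and 16. Of the 58 euploid peaks 2 overlapped a Ts65Dn peak by at least 1 base, where 2.67% of all euploid peaks did, and 0 of 58 overlapped a Ts65Dn;Brwd1+/- peak, where 3.82% of all euploid peaks did. Peaks with a q-value under 0.05 and a fold enrichment over 1.2 made up 87.8% of the euploid, 31.8% of the Ts65Dn and 58.2% of the Ts65Dn;Brwd1+/- list, and with those limits 53, 0 and 1 peaks at members were left.

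Arid1b was named by 32 euploid SMARCA2/4 peaks, which ranked it 8 of 7825 named genes by number of peaks, over a gene of 353 kb (chr17:4994332-5347656). By their middle base 30 lay in introns and 2 in coding exons, and their fold enrichment ran from 2.64 to 4.47 with a median of 3.63, against a median of 3.74 over the whole list. The Ts65Dn list had 2 peaks and the Ts65Dn;Brwd1+/- list 1. The euploid peak at chr17:5065553-5065662, in an intron, at 3.63-fold enrichment was the only one of the 32 that overlapped a Ts65Dn peak, which had 3.00-fold enrichment and a q-value of 0.750. The intronic euploid peak with the highest fold enrichment (4.47, q-value 0.000208) is shown, and it overlapped an ATAC-seq peak in all 3 genotypes. It spans chr17:5189706-5189761, plus strand, and its capitals, here the whole sequence, mark bases inside the Ts65Dn ATAC-seq peak.
Arid1b intronic peak: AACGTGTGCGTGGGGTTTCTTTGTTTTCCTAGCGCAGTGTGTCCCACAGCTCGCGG

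Smarca2 had 10 euploid SMARCA2/4 peaks and none in the other lists. The one over its start (chr19:26604872-26605060, 3.25-fold, q-value 0.00755) covered 178 of the 250 bases printed above, 4 more were centred 540, 1521, 1781 and 2818 bases inside the gene, and the other 5 were spread from 25797 to 165327 bases. Of those 5, the deposited annotation places the one at 25797 bases in the gene body and the others in promoter classes. Arid1a had 5, of which that at chr4:133756684-133756840 (4.01-fold) covered the start and that at chr4:133757098-133757475 (4.77-fold) overlapped a Ts65Dn peak. Smarcd3 had 5, Smarca4 3, Smarcd1 2 and Smarcc1 1. Smarcb1, Smarcc2 and Smarce1 were named by no SMARCA2/4 peak in any list, although by position rather than by the deposited identifier Smarcc2 had 1 euploid peak in its body or the 3000 bases before it. The Ts65Dn;Brwd1+/- list had a Smarcd1 peak of its own (chr15:99701856-99701903, 4.20-fold, q-value 0.0187), 250 bases before the start.

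Open chromatin was recorded at more sites of the members in the trisomic lists, which were also longer. The euploid list held 15521 ATAC-seq peaks with 16 at members, the Ts65Dn list 29195 with 35 and the Ts65Dn;Brwd1+/- list 30244 with 35, or 10.3, 12 and 11.6 per 10000 peaks. All 16 euploid peaks had an overlapping peak in both other lists, where 96.7% and 96.2% of all euploid peaks did in Ts65Dn and Ts65Dn;Brwd1+/-. Of the 35 peaks in each trisomic list, 19 in Ts65Dn and 18 in Ts65Dn;Brwd1+/- had no euploid peak under them, where 50.1% and 52.1% of all peaks had none.

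Arid1b accounted for 12 of the 19 and 11 of the 18. Without a euploid peak were thus 70.6% and 68.8% of the peaks naming Arid1b, 53.6% and 61.8% of those at the triplicated segment, and 38.9% and 36.8% of those at the other members, in Ts65Dn and Ts65Dn;Brwd1+/-. It was named by 5 euploid, 17 Ts65Dn and 16 Ts65Dn;Brwd1+/- ATAC-seq peaks, and 14 of the 17 Ts65Dn peaks overlapped a Ts65Dn;Brwd1+/- peak, where 81% of all Ts65Dn ATAC-seq peaks did. All 5 euploid peaks lay in introns, centred from 89980 to 316347 bases past the start. The promoter of Arid1b had a peak in Ts65Dn (chr17:4994196-4994706, 2.62-fold, q-value 2.84e-09) and in Ts65Dn;Brwd1+/- (chr17:4994256-4994678, 2.38-fold, q-value 7.49e-08) and none in the euploid list, and so did a coding exon near it (chr17:4994810-4995981 in Ts65Dn, 3.02-fold). Peaks at genes of the whole triplicated segment numbered 130, 267 and 317, and those at its chromosome 17 part 35, 95 and 117. The number of DNA copies of this segment differs between the genotypes by design, and its part in the peak counts was not tested.

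**Figure D4:**
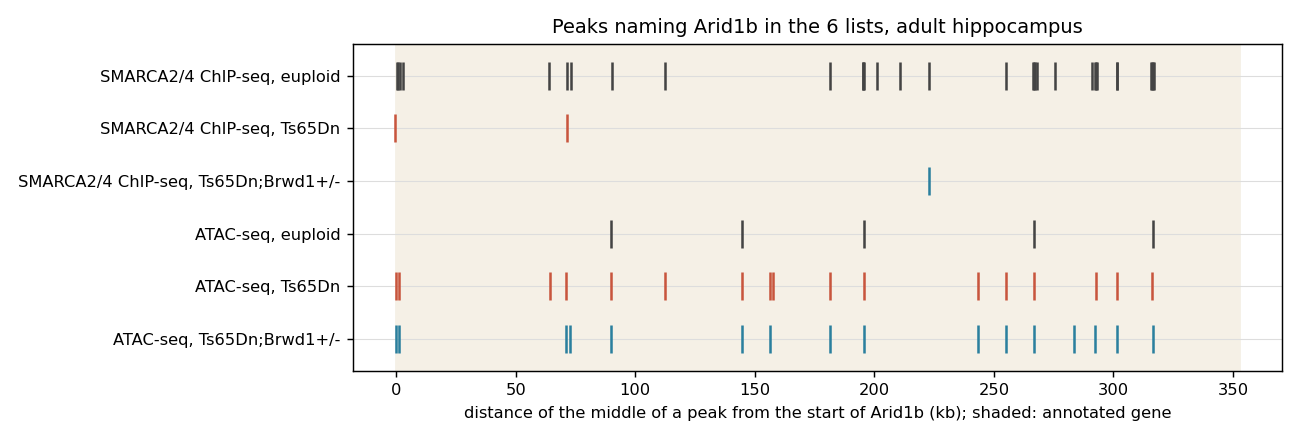
Position of every peak naming Arid1b in the 6 deposited lists, as the distance in kb of the middle of the peak from the start of the gene, with 1 tick per peak and the annotated gene shaded. The euploid SMARCA2/4 row has 32 ticks and the other 2 SMARCA2/4 rows 2 and 1, while the ATAC-seq rows have 5, 17 and 16.

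Of the 58 euploid SMARCA2/4 peaks at members, 14 overlapped a euploid ATAC-seq peak, 28 a Ts65Dn and 24 a Ts65Dn;Brwd1+/- ATAC-seq peak. Over all euploid SMARCA2/4 peaks these shares were 26.5%, 44.7% and 44.1%. At Arid1b the counts were 7, 18 and 15 of 32, and at Smarca2 1, 1 and 1 of 10.

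At the 16 sites open in all 3 lists, the fold enrichment over local background could be set side by side. It was higher in Ts65Dn than in euploid at 15 of 16, where 92.7% of all shared euploid peaks were higher, with a median ratio of 1.29 against 1.23 over all. It was higher in Ts65Dn;Brwd1+/- than in euploid at 12 of 16, where 62.6% of all were, with a median ratio of 1.05 in both cases. The 5 sites of Arid1b had ratios to euploid between 1.29 and 1.64 in Ts65Dn, at a median of 1.39 against 1.15 over 129 shared peaks of the triplicated segment, and between 0.865 and 1.37 in Ts65Dn;Brwd1+/-, at a median of 1.05 against 0.956 over 126 such peaks. At the intron site 89980 bases from the start euploid had 2.86-fold enrichment, Ts65Dn 4.68-fold and Ts65Dn;Brwd1+/- 3.91-fold.

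Most other members had 1 shared site. The Smarca4 promoter peak had 7.49-fold enrichment in euploid, 9.23-fold in Ts65Dn and 6.72-fold in Ts65Dn;Brwd1+/-, that of Smarca2 6.02, 6.41 and 5.39-fold, and that of Smarcb1 4.32, 5.86 and 4.53-fold. The Smarcc1 peak, 14219 bases past the first annotated base of the gene, had 6.71, 8.99 and 7.49-fold enrichment. Its middle lay in an annotated intron in euploid, but the deposited annotation calls it a proximal promoter in every list. It covers a RefSeq promoter window of Smarcc1 (chr9:110131774-110132073). For Smarcd3, 101 bases inside the gene, the values were 3.49, 5.48 and 4.22-fold, for Smarce1 3.45, 5.46 and 4.53-fold and for Smarcd1 3.48, 4.07 and 3.38-fold. Arid1a had 3 sites, of which that 2405 bases inside the gene was the one of the 16 with a lower value in Ts65Dn than in euploid, at 3.90 against 4.16-fold. The Smarce1 peaks lay over its 5′ exon, and only a peak of Ts65Dn;Brwd1+/- covered the first annotated base. No ATAC-seq peak named Smarcc2, but by position 1 peak of each list lay at its body or the 3000 bases before it, and those of the 2 trisomic lists covered its first base.

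**Figure D5:**
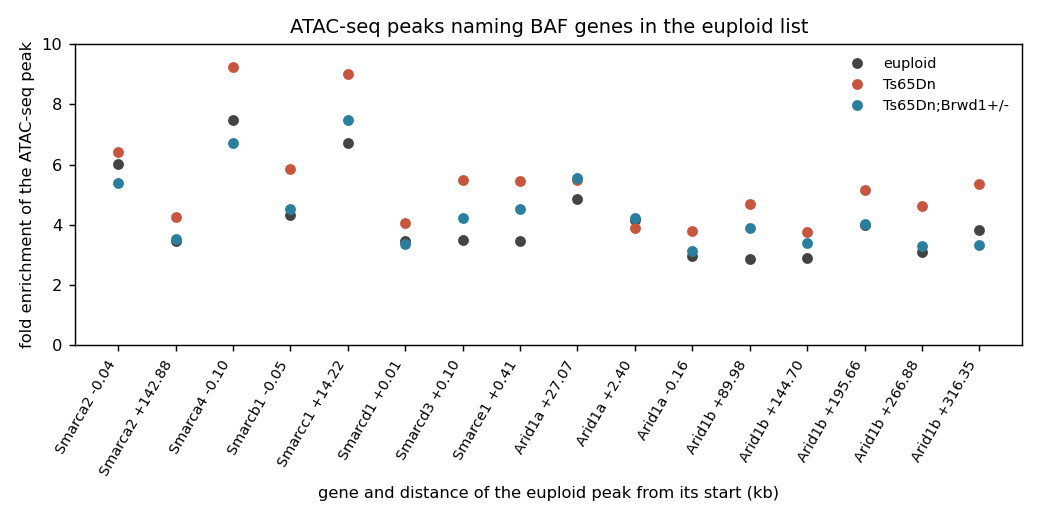
Fold enrichment over local background of the 16 euploid ATAC-seq peaks that name a BAF gene and of the peak with the highest fold enrichment over each in the other 2 lists, with the distance in kb of the euploid peak from the start of its gene on the x axis. Each point is 1 pooled peak, without replicate error, and the Ts65Dn point is above the euploid point at 15 of 16 sites.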

How the data were processed

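Primary E16 cultures were measured by RNA-seq, and adult hippocampus by SMARCA2/4 ChIP-seq and ATAC-seq. Raw counts per gene, deposited by the authors, came from HISAT2 alignments to mm10 and, per the labels and methods, featureCounts, of which 37.4 to 40% of each library, in lines naming no gene, were left out here. The study's methods name the versions and an Ensembl annotation but not whether strand was used. The summary lines of the files have the form written by another counter, HTSeq, so the treatment of reads over overlapping genes is uncertain. Peak lists deposited by the authors, called with MACS, give for each peak a fold enrichment (a ratio to local background) and a q-value, with 1 list per genotype and assay, and depth behind a peak is unknown. Read depth was 17270070 to 25892802 gene counts per culture library. Counts were fitted here in 1 edgeR quasi-likelihood model of all 9 libraries (edgeR 4.0.16 in R 4.3.3, TMM, filterByExpr) with Benjamini-Hochberg adjustment over 17173 genes and a threshold of 0.05. The study's own methods used DESeq2 with a threshold of 0.1, and both were run as alternatives (DESeq2 1.42.0). RPKM used the union of annotated exons, and paralogue ratios a prior count of 2. Peaks were compared by an overlap of at least 1 base with Python 3.11.15, taking coordinates as starting from 1. The script was tested on simulated data. Same-numbered euploid and Ts65Dn libraries deviated together (r = 0.13, 0.21 and 0.26), so their numbers were taken as pairing them, a hint from the data that no label gives. The numbers did not pair either group with the libraries labelled Ts65Dn;Brwd1+/-. Nothing says that replicates came from separate litters, so p-values measure the spread between these libraries, which may be technical. The members and lists were chosen with earlier results of these data known. Named are all members, the 3 genes with the lowest p in either of the first 2 comparisons in each list of other genes, the nearest genes to Arid1b and the 3 genes most correlated with Smarca2, Smarca4 and Arid1b. Protein sequences are not used here.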

Additional observations from a re-analysis of the deposited data

How the results depend on the processing

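Under 8 other settings of the fit, the number of members called stayed between 3 and 4 for Ts65Dn against euploid and at 8 in both other comparisons, and DESeq2 gave 4, 8 and 8. Leaving out 1 library gave 2 to 4, 7 to 8 and 6 to 9 members, with 2 in the first comparison without euploid replicate 3 or without Ts65Dn replicate 3, and medians of the member log2 fold changes from -0.18 to -0.07, 0.44 to 0.53 and 0.36 to 0.48. With the replicate block the counts were 4, 8 and 8 and the medians -0.12, 0.49 and 0.43, so the pairing changed no count of members called. Smarca2 in the libraries labelled Ts65Dn;Brwd1+/- against euploid, at 0.00, turned to -0.0052 with DESeq2, -0.0047 with no filter on low counts, -0.00079 in a fit of only those 2 genotypes, -0.02 and -0.03 without euploid replicate 1 or 3, and -0.050 and -0.03 without Ts65Dn;Brwd1+/- replicate 1 or 3, with a highest value of 0.012 over the omissions of 1 library, never past the threshold. Smarcb1 in Ts65Dn against euploid did not pass with no filter (0.23, edgeR quasi-likelihood adjusted p = 0.124) or in a fit of only those genotypes (0.23, adjusted p = 0.0691). The other BAF subunits called in the libraries labelled Ts65Dn;Brwd1+/- against euploid numbered 6 instead of 11 without euploid replicate 1 or 3 or without Ts65Dn;Brwd1+/- replicate 1 or 3. The causes were not tested. Requiring a q-value under 0.05 and a fold enrichment over 1.2 left 0 of 4 SMARCA2/4 peaks at members in Ts65Dn and 1 of 3 in Ts65Dn;Brwd1+/-, and requiring that a peak overlap at least 50% of the euploid peak left 1 of the 2 euploid peaks shared with Ts65Dn. With 3 libraries per genotype and no replicate error for peaks, small differences could not be resolved.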
